A study of Mus musculus with 14 samples.

Results

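The genes described here are those of the plasminogen activation system and of cell-surface coagulation: the activators *Plau* and *Plat*, the receptor *Plaur*, the inhibitors *Serpinb2* and *Serpine2*, the coagulation initiator *F3* and the anticoagulant receptor *Thbd*. Members were all probes, other than control spots, whose gene name on the array was that of a member, which gave 13 of 41174 probes and 7 of 27962 gene names. All 13 probes passed the filter on dim signals, 2 of them through a single group, as did 22172 probes of the whole array. Where a gene had several probes, the brightest tested probe stood for it, and the others are given beside it.

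Plasminogen is a circulating proenzyme that urokinase (the product of *Plau*) and tissue-type plasminogen activator (the product of *Plat*) convert to plasmin, a protease that dissolves fibrin and breaks down extracellular matrix. The urokinase receptor encoded by *Plaur* holds urokinase at the cell surface, and serpins such as those encoded by *Serpine2* and *Serpinb2* inhibit the activators. Fibroblasts are known to make urokinase, its receptor and several of the inhibitors, and a number of these genes are known to respond to inflammatory cytokines.

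Expression was measured on 14 one-colour arrays of *p65*(-/-) mouse embryonic fibroblasts (NIH 3T3, per the methods), cells that lack the NF-κB subunit p65 and that had been given a lentiviral copy of p65 or none. The 5 groups were wild type p65 without TNFα (0 h, 3 arrays), wild type p65 after 3 h of mouse TNFα at 30 ng/ml (3 arrays), the triple mutant KTR, in which lysines K310, K314 and K315 are arginines (3 arrays), the double mutant K314/315R (2 arrays) and the empty vector pTV (3 arrays), the last 3 also after 3 h of TNFα. All cells were starved overnight, and none of the pTV or mutant cells was measured without TNFα. Each line was a pool of selected cells, so that a line differs from another in its transduction as well as in p65. RNA of the replicates was isolated on different days.

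The arrays lay on 4 slides, of which slides 1 to 3 each carried KTR, pTV, wild type 3 h and wild type 0 h once, and slide 4 held both K314/315R arrays, so slide and line cannot be told apart for K314/315R. Between 49.9% and 57.7% of spots were well above background on an array. The targeted gene does not settle the labels here: the brighter of the *Rela* probes, at 1.53 ± 0.01 (SD, n = 3) in wild type 3 h and 1.18 ± 0.17 (SD, n = 3) in pTV, still gave signal without p65. The dimmer probe, at -1.95 and -2.56, did so too. On both probes all wild type 3 h arrays lay above all pTV arrays. The difference was 1.28-fold on the brighter probe and 1.52-fold on the dimmer (limma adjusted p = 0.213 and 0.0218). Of 9 fibroblast markers, all were detected (well above background) throughout 4 groups and 8 throughout KTR. The exception, *Pdgfrb*, was detected on 13 of 14 arrays, and its lowest measured log2 level was 3.05, so it was not a dim gene. *Pecam1*, *Ptprc*, *Cdh1* and *Epcam*, which define endothelial, blood-derived and epithelial cells, were well above background on 0 of 14 arrays. Of the other markers in these lists, the macrophage genes *Csf1r* and *Cd68* were detected on 13 and 6 arrays, and the epithelial keratin genes *Krt8*, *Krt19* and *Krt18* on 14, 14 and 5, while *Vwf* and *Lyz2* were detected on 1 array each. The summed signal of the 5 epithelial markers, carried by *Krt19* and *Krt8*, was 1.06 to 1.29 times the 75th percentile of the array in pTV against 0.683 to 0.734 in wild type 3 h, and that of 6 macrophage markers was 0.174 to 0.205 against 0.144 to 0.157. The part of these markers in the differences between wild type and pTV below was not tested.

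The promoters of the 3 members called in wild type over pTV, and that of *F3*, which was not called in any comparison, are shown so that they can be set beside the results. RefSeq windows (GRCm38.p6) of 250 bases before to 50 after the start of transcription were matched for 4 of the 7 members, *Serpinb2*, *Serpine2*, *Plaur* and *F3*. The 250 bases before the start are printed 5′ to 3′ on the strand of the gene, for *Serpinb2* at the upstream one of its starts. Capitals mark matches to the AP-1 motif TGANTCA or the TATA motif TATAAA on either strand.
*Serpinb2*, chr1:107511173-107511422, plus strand: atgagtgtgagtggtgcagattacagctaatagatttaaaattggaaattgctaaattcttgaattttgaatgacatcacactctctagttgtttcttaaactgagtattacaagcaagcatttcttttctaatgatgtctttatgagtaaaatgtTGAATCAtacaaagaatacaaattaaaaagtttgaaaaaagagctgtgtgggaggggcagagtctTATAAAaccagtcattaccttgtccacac
*Serpine2*, chr1:79858666-79858915, minus strand: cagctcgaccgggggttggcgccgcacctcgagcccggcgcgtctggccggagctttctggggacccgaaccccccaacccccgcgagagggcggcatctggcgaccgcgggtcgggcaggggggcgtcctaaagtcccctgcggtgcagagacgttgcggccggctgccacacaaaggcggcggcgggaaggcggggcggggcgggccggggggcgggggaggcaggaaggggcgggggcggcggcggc
*Plaur*, chr7:24462233-24462482, plus strand: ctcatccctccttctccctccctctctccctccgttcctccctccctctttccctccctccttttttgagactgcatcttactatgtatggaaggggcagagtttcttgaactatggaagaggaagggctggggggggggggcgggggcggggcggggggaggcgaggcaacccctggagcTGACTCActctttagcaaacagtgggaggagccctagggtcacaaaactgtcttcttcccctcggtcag
*F3*, chr3:121723287-121723536, plus strand: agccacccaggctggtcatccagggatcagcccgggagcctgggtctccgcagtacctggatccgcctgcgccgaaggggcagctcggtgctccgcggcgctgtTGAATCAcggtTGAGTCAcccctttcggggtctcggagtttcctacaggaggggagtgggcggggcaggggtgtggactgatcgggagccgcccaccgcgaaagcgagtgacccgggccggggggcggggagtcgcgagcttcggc
The *Serpinb2* window held an AP-1 match whose first base lay at position -94 from the start and a TATA match at -29. The *Plaur* window held an AP-1 match at -69, and that of *F3* held AP-1 matches at -146 and -135 and, in the part after the start that is not printed, a TATA match on the other strand at 44. The *Serpine2* window held neither motif. Of all 32851 promoter windows in the table, 7.81% held the AP-1 motif, 13.6% the TATA motif and 8.46% the NF-κB consensus on either strand, and the last was found in none of the windows printed above. The motifs do not overlap in these windows, and such matches are descriptions of the letters only.

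With p65 present, the inhibitor genes *Serpinb2* and *Serpine2* were several-fold higher than in pTV cells, while the receptor gene *Plaur* was lower. After TNFα in wild type cells, *Serpinb2*, *Plaur* and *Serpine2* rose, so *Plaur* was higher with TNFα and lower with p65. None of the 7 genes was called between either lysine mutant and wild type. All levels below are log2 signals relative to the 75th percentile of the array, where 0 is the level of that percentile, and a difference of 1 is a 2-fold change. A gene was called at a Benjamini-Hochberg adjusted p under 0.05 from limma, and a fold over 2 against pTV or over 1.8 otherwise. In bulk RNA, fewer cells expressing a gene and less RNA per cell cannot be told apart.

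In wild type over pTV at 3 h, 2 of the 7 genes were called higher and 1 lower, where 3.59% and 1.46% of all tested probes were called higher and lower. For wild type 3 h over 0 h, 3 genes were called higher and 0 lower, against 1.12% and 0.424% of probes. KTR over pTV gave 2 genes higher and 0 lower, against 3.32% and 1.36%, and K314/315R over pTV gave 2 higher and 2 lower, against 4.18% and 4.68%. In KTR over wild type 0 genes were called, with 0.0271% of probes higher and 0.140% lower, and in K314/315R over wild type 0, with 0.167% and 1.03%. The median difference of the 7 genes was 0.33 with TNFα, against -0.04 over all tested probes, and all 7 differences were positive. It was 0.04 in wild type over pTV against -0.03. The comparisons share arrays, since wild type 3 h enters 4 of the 6 and pTV enters 3.

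**Figure D1:**
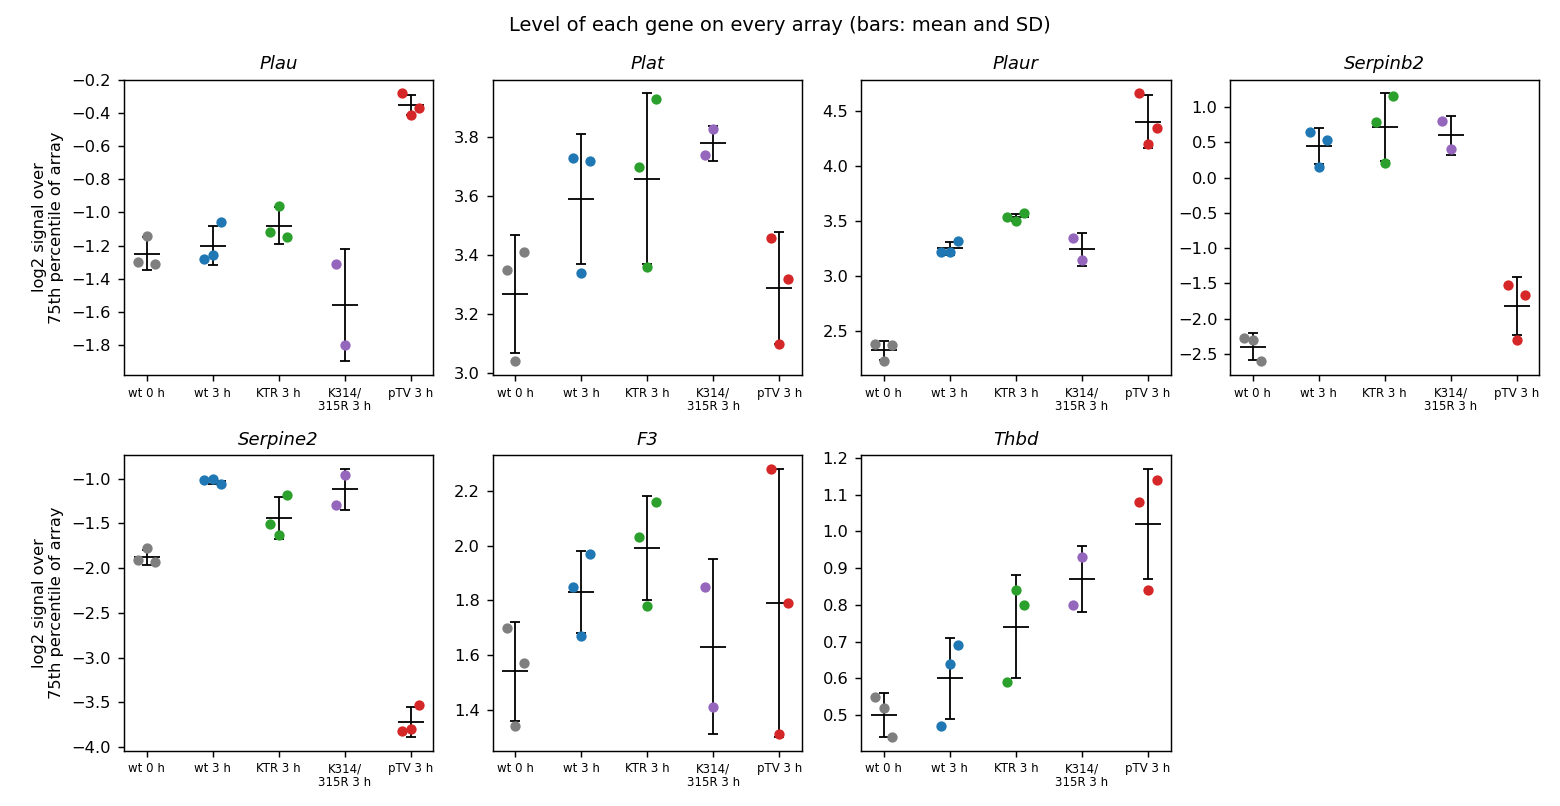
Log2 signal over the 75th percentile of the array for the brightest tested probe of each gene (vertical axis, scaled per gene) in the 5 groups. Points are arrays and bars the mean and SD; the 3 pTV arrays lie below all arrays of wild type and mutants for *Serpine2* and above them for *Plaur* and *Plau*.

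*Plau*, which encodes urokinase, gave -1.28, -1.26 and -1.06 in wild type 3 h and -0.28, -0.41 and -0.37 in pTV. Its values were -1.12, -0.96 and -1.15 in KTR, -1.31 and -1.80 in K314/315R and -1.30, -1.14 and -1.31 in wild type 0 h. The pTV arrays lay above all others, and the 2 K314/315R arrays lay at or below the wild type 0 h arrays. Wild type over pTV was -0.85 ± 0.12 (SE; adjusted p = 4.8e-04), which is under the fold limit of 2, so *Plau* was not called there. K314/315R over pTV was -1.20 ± 0.14 (adjusted p = 7.9e-05) and called lower, and KTR over pTV was -0.72 ± 0.12 (adjusted p = 0.00176), under the fold limit. The K314/315R call depended on replicate 2, without which the difference was -0.96, and on the background correction (-0.95 with the local background subtracted, -0.92 with normexp). With TNFα the difference was 0.05 ± 0.12 (95% interval -0.22 to 0.32), and the groups overlapped.

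The other *Plau* probe was well above background on the 3 pTV arrays alone and passed the filter only through them, so its direction is a description and is given with no test. It was at least 1.38-fold higher in pTV than in wild type 3 h and at least 1.41-fold higher than in K314/315R. For KTR the bound was under 1, and no fold is given. Such a bound sets the mean of the bright group against the lowest signal counted as well above background in the dim one.

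*Plat*, which encodes tissue-type plasminogen activator, was not called in any comparison. Its levels were 3.73, 3.34 and 3.72 in wild type 3 h, 3.46, 3.10 and 3.32 in pTV and 3.35, 3.04 and 3.41 in wild type 0 h. In the mutants they were 3.70, 3.36 and 3.93 (KTR) and 3.74 and 3.83 (K314/315R). Neighbouring groups overlapped throughout the order of the means, and the span from the lowest to the highest mean was 0.52. The differences were 0.33 ± 0.17 with TNFα (95% interval -0.04 to 0.69, adjusted p = 0.356) and 0.30 ± 0.17 for wild type over pTV (95% interval -0.06 to 0.67, adjusted p = 0.289). A further *Plat* probe followed the first over 14 arrays with r = 0.956, and the dimmest was well above background on the 2 K314/315R arrays alone, through which it passed the filter, so no difference is drawn from it.

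*Plaur*, the urokinase receptor gene, had 3.22, 3.22 and 3.32 in wild type 3 h and 2.38, 2.22 and 2.37 in wild type 0 h, without overlap. The pTV arrays, at 4.66, 4.20 and 4.34, lay above every other array. KTR arrays lay at 3.53, 3.50 and 3.57 and K314/315R arrays at 3.34 and 3.14. *Plaur* thus stood highest where p65 was absent and lowest in unstimulated wild type cells, with the other 3 groups between. TNFα raised it by 0.93 ± 0.12, or 1.91-fold (adjusted p = 7.2e-04), and wild type over pTV was -1.15 ± 0.12, a level 2.21-fold higher in pTV (adjusted p = 2.2e-05).

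Against pTV, *Plaur* was also called lower in K314/315R (-1.16 ± 0.13, adjusted p = 6.0e-05), and in KTR its difference of -0.87 ± 0.12 passed the adjusted p (2.6e-04) but not the fold limit. The other *Plaur* probe followed the first over 14 arrays (r = 0.992), with a fold of 1.79 for TNFα, just under 1.8, so it was not called there. With normexp the TNFα call was lost (0.64, adjusted p = 0.594), as was that of K314/315R over pTV (-1.18, adjusted p = 0.0834).

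*Serpinb2* encodes plasminogen activator inhibitor type 2. Its levels were -2.27, -2.30 and -2.61 in wild type 0 h and 0.65, 0.15 and 0.54 in wild type 3 h, and -1.52, -2.30 and -1.66 in pTV. KTR gave 0.79, 0.21 and 1.16 and K314/315R 0.80 and 0.40. All arrays with p65 and TNFα lay above 0, and all arrays that lacked either lay below -1. The rise with TNFα was 2.84 ± 0.26, or 7.16-fold (95% interval 4.85 to 10.6, adjusted p = 8.3e-05), rank 2 of 22172 tested probes by size of the rise, behind the other *Serpinb2* probe. Wild type over pTV was 2.27 ± 0.26, or 4.82-fold (adjusted p = 6.2e-05). KTR over pTV was 5.83-fold and K314/315R over pTV 5.38-fold (adjusted p = 2.9e-05 and 9.9e-05). The pTV arrays, with TNFα and no p65, overlapped the wild type 0 h arrays. The other *Serpinb2* probe gave 7.84-fold for TNFα and 5.08-fold for wild type over pTV (adjusted p = 1.3e-05 and 7.7e-06).

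*Serpine2* encodes protease nexin-1, an inhibitor of thrombin and of plasminogen activators. Wild type 3 h arrays lay at -1.02, -1.0 and -1.06, and pTV arrays at -3.82, -3.80 and -3.53, which was the lowest group. Wild type 0 h arrays lay at -1.91, -1.78 and -1.93, above pTV although without TNFα. KTR arrays lay at -1.51, -1.63 and -1.18 and K314/315R arrays at -1.29 and -0.96. Wild type over pTV was 2.69 ± 0.13, or 6.46-fold (95% interval 5.29 to 7.88, adjusted p = 6.3e-08). KTR over pTV was 4.85-fold (adjusted p = 3.1e-07) and K314/315R over pTV 6.03-fold (adjusted p = 3.0e-07). The sizes of these differences depended on the background correction. With the local background subtracted, the log2 differences from pTV were 1.86 in wild type, 1.44 in KTR and 1.69 in K314/315R, and all were still called. The 1.86 lay below the main log2 interval of 2.40 to 2.98.

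The TNFα difference of *Serpine2* was 0.85 ± 0.13, (adjusted p = 0.00302), which lay at the fold limit of 1.8: it was just under the limit without wild type 3 h replicate 1 or 2 or wild type 0 h replicate 1 or 3 (0.82 to 0.85), and 0.71 with the local background subtracted. With normexp none of the *Serpine2* calls held, wild type over pTV giving 1.61 (adjusted p = 0.0621), KTR over pTV 1.03 (0.337 adjusted), K314/315R over pTV 1.27 (0.202 adjusted) and TNFα 0.95 (0.594 adjusted). This method's fitted background mean was -1480 on wild type 3 h replicate 1 and -505 on pTV replicate 2, and between -93.5 and 34.2 on the others.

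**Figure D2:**
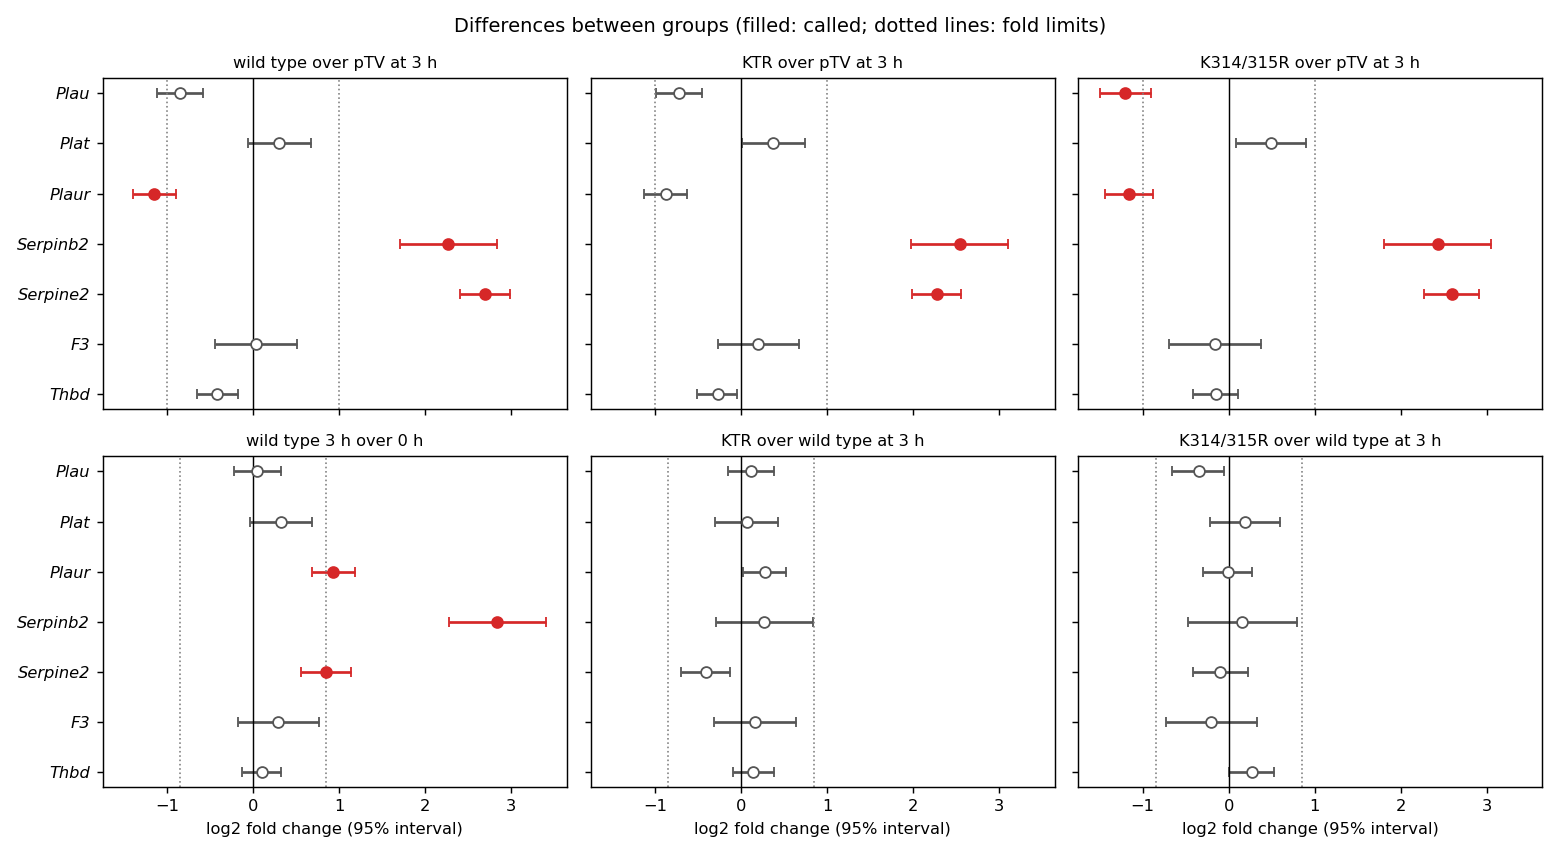
Log2 fold change of each gene in the 6 comparisons (horizontal axis, with 95% intervals). Filled points were called and dotted lines show the fold limits; *Serpinb2* and *Serpine2* were called in all 3 comparisons with pTV, and no gene in either mutant over wild type.

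*F3* encodes tissue factor, the receptor that starts coagulation, and it was not called in any comparison. Its levels were 1.85, 1.67 and 1.97 in wild type 3 h and 1.70, 1.34 and 1.57 in wild type 0 h. The pTV arrays spanned 1.31 to 2.28, a wider range than in any other group, and slide 1 held the highest of them. KTR gave 2.03, 1.78 and 2.16 and K314/315R 1.85 and 1.41. Wild type over pTV was 0.04 ± 0.22 (95% interval -0.44 to 0.51), and the TNFα difference was 0.29 ± 0.22 (95% interval -0.18 to 0.77, adjusted p = 0.575). The other *F3* probe lacked the KTR replicate 3 array, whose spot was an outlier, and the fit dropped that sample for it.

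*Thbd* encodes thrombomodulin, which binds thrombin and turns it to protein C activation. Its levels were 0.47, 0.64 and 0.69 in wild type 3 h, 0.55, 0.52 and 0.44 in wild type 0 h and 1.08, 0.84 and 1.14 in pTV. KTR gave 0.59, 0.84 and 0.80 and K314/315R 0.80 and 0.93. The pTV arrays lay above those of wild type and KTR and overlapped those of K314/315R, and KTR overlapped wild type. Wild type over pTV was -0.42 ± 0.11, a level 1.34-fold higher in pTV, with adjusted p = 0.0198 but under the fold limit, so it was not called. With TNFα the difference was 0.10 ± 0.11 (95% interval -0.13 to 0.33).

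The lysine mutants were compared with wild type at 3 h to ask whether the acetylatable residues alter these genes. In KTR, *Serpine2* was -0.41 ± 0.13 relative to wild type (95% interval -0.70 to -0.13), lower on all 3 KTR arrays than on all 3 wild type arrays, with adjusted p = 0.318. *Plaur* was 0.28 ± 0.12 (95% interval 0.03 to 0.53, adjusted p = 0.481), higher on all 3. *Serpinb2* was 0.27 ± 0.26 (95% interval -0.29 to 0.84), with overlapping arrays. For the other genes the differences ran from 0.07 for *Plat* to 0.16 for *F3*. In K314/315R, *Plau* was -0.35 ± 0.14 (95% interval -0.66 to -0.05, adjusted p = 0.208) and *Thbd* 0.27 ± 0.12 (95% interval 0.00 to 0.53, adjusted p = 0.279). *Serpinb2* was 0.16 ± 0.29 (95% interval -0.47 to 0.79), *Serpine2* -0.10 ± 0.15 (95% interval -0.42 to 0.22) and *Plaur* -0.01 ± 0.13 (95% interval -0.30 to 0.27). For the brightest probes of the 7 genes, intervals of the fold ran from 0.615 to 1.78 in KTR and from 0.604 to 1.72 in K314/315R, which lie within a 1.8-fold change in either direction. The interval of the other *F3* probe in K314/315R over wild type, 0.541 to 1.27, reached beyond it. So did those of the other *Plau* probe (0.488 to 1.63) and the dimmest *Plat* probe (0.974 to 2.15), both with signals near background. A p that misses the threshold does not show that the mutants act as wild type.

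Within slides, where each array has its partner, the called differences of wild type over pTV and of TNFα kept their sign on all of slides 1 to 3. *Serpinb2* rose by 2.92, 2.45 and 3.15 with TNFα and was 2.17, 2.44 and 2.20 above pTV. *Serpine2* was 2.81, 2.80 and 2.47 above pTV, and *Plaur* differed from pTV by -1.44, -0.98 and -1.02. The KTR difference of *Serpine2* from wild type was -0.49, -0.63 and -0.12, and that of *Plaur* was 0.31, 0.28 and 0.25. *F3* changed sign between slides in wild type over pTV, from -0.43 on slide 1 to 0.36 on slide 2.

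**Figure D3:**
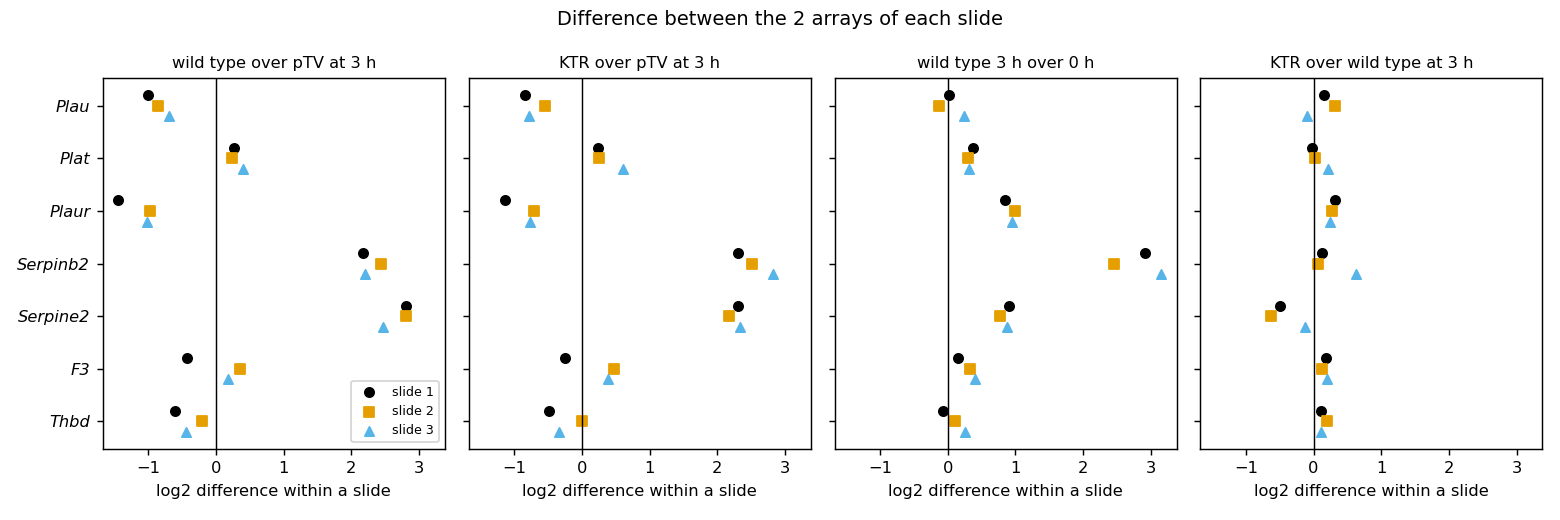
Difference in log2 signal between the arrays of a slide (horizontal axis) for each gene in 4 comparisons; each symbol is 1 of slides 1 to 3. The 3 slides lie on the same side of 0 for every call, and *F3* lies on both sides in wild type over pTV.

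The other genes of the system were taken from a plasminogen list of 22 genes, of which 11 were tested, and a coagulation list of 30, of which 12 were tested. From the plasminogen list 0 genes were called in wild type, KTR or K314/315R over pTV, and 0 in either mutant over wild type. *Plg*, the plasminogen gene, and *Tfpi*, the tissue factor pathway inhibitor gene, were not tested, being well above background on at most 3 and 1 of 14 arrays.

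*F2r*, the gene of the main thrombin receptor, gave 2.84, 2.93 and 3.06 in wild type 3 h and 3.65, 3.82 and 3.86 in pTV. The difference was -0.83 ± 0.11 (adjusted p = 2.5e-04) and under the fold limit. The coagulation list held a single called gene among 12 tested, *F9*, named after its values were seen. It was lower in K314/315R than in pTV by -1.22 ± 0.38 (adjusted p = 0.0335), where 4.68% of all tested probes were called lower. *F9* was not called in wild type over pTV (-0.08) or in K314/315R over wild type (-1.14, adjusted p = 0.143). Both K314/315R arrays lay on slide 4, so slide and line cannot be told apart for this call. The medians of the plasminogen and coagulation lists in wild type over pTV were -0.05 and 0.01, against -0.03 over all tested probes.

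Other serpins, a list of 30 names of which 28 were on the array and 16 tested, had a median of 0.80 in wild type over pTV, against -0.03 over all tested probes. The same 7 genes were called higher in wild type, KTR and K314/315R over pTV: *Serpina3f*, *Serpina3g*, *Serpina3n*, *Serpinb1a*, *Serpinb1b*, *Serpinb1c* and *Serpinb9*. Of all tested probes, 3.59%, 3.32% and 4.18% were called higher in these comparisons, which share the pTV arrays. *Serpina3g*, a serpin of the antichymotrypsin cluster, had 4.18, 3.53 and 3.77 in wild type 3 h and 0.57, 0.00 and 0.68 in pTV, a 10.6-fold difference (adjusted p = 5.3e-06). *Serpina3f* was well above background on 3 of 3 wild type 3 h arrays and 1 of 3 pTV arrays, so no fold is given. *Serpina3n* was well above background on 0 of 3 pTV arrays, so its direction is a description and is given with no test. It was at least 2.11-fold higher than pTV in wild type 3 h and at least 3.49-fold higher in K314/315R. In KTR the bound was 1.90, under the fold limit of 2, so its call there rests on signals near background. *Serpinb1a* was 3.28-fold higher (adjusted p = 2.0e-04). None of the 7 was called with TNFα, and *Serpina3g* already stood at 3.86, 3.36 and 3.55 in wild type 0 h. The single TNFα call on this list was *Serpinb8*, lower by -0.88 ± 0.13 (adjusted p = 0.00176). The *Serpina3* and *Serpinb1* genes have near-identical copies, so a probe may read more than 1 of them.

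**Figure D4:**
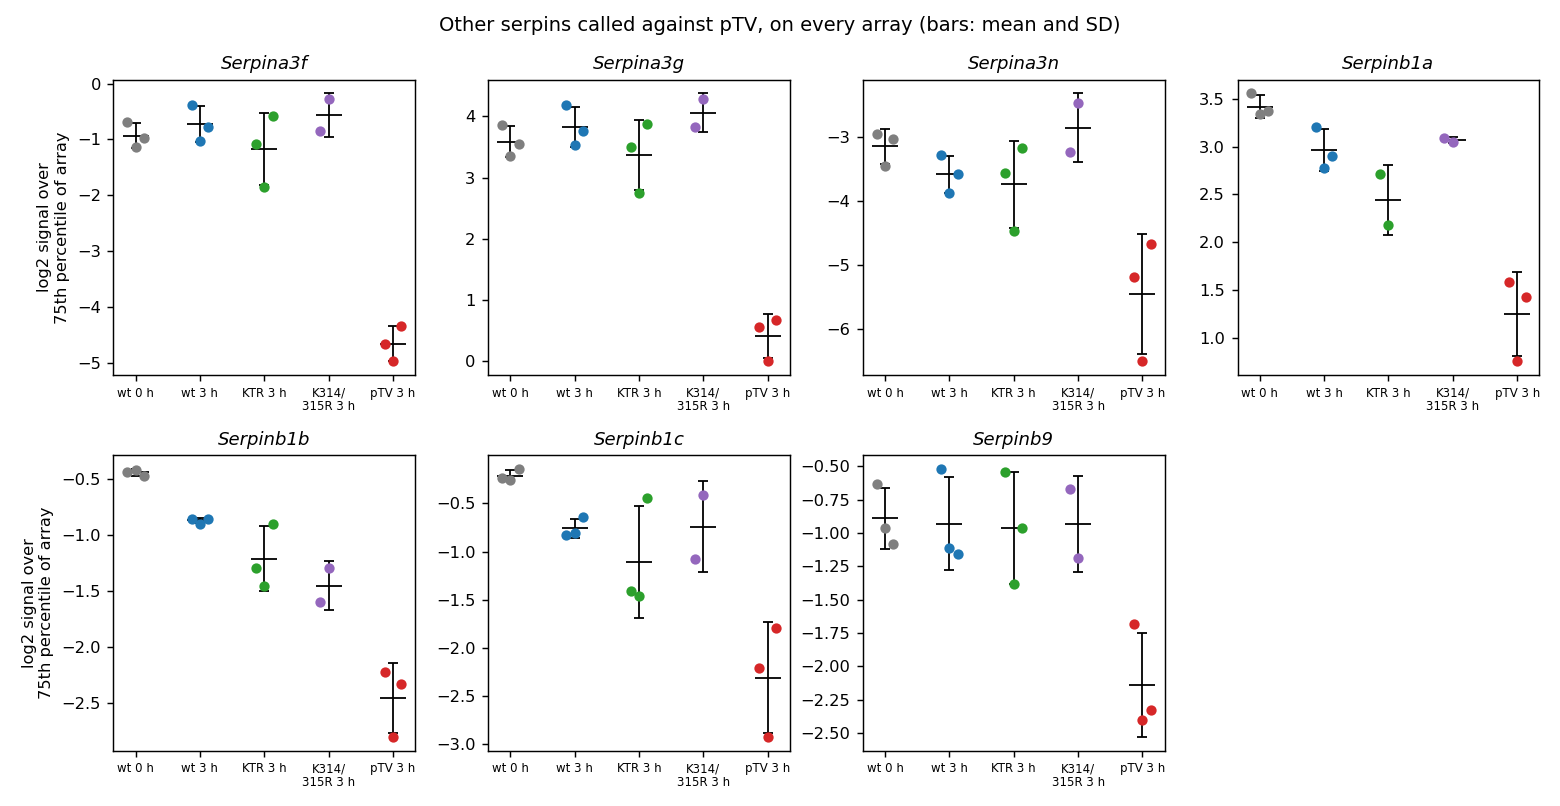
Log2 signal over the 75th percentile of the array (vertical axis, scaled per gene) of the 7 other serpins called against pTV, in the 5 groups; points are arrays and bars the mean and SD. For the 7 genes the pTV arrays lie below the wild type 3 h arrays, while the wild type 0 h arrays overlap or exceed these.

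Across the 14 arrays, the probes whose levels were most like those of a member were compared by Pearson's r over 18524 probes well above background on all arrays; arrays share slides and groups, so r is a description. For *Serpine2* these were *Tlr2* (0.991), *Foxo3a* (0.991) and *Ppap2b* (0.989). For *Serpinb2* they were *Slc7a11* (0.981), *Plscr1* (0.976) and *Nfkbib* (0.966), and for *Plaur* *Sema7a* (0.990), *Rkhd3* (0.981) and *Rbbp8* (0.980). For *Plau* the most alike were *Arl10* (0.978), *4732474O15Rik* (0.971) and *2610301F02Rik* (0.965). The closest gene was *Rnf139* for *Plat* (0.941), *D030016E14Rik* for *F3* (0.884) and *Trim16* for *Thbd* (0.929).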

How the data were processed

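RNA of 14 cultures was labelled with Cy3 and hybridised, 1 array each. Each spot's intensity was made by the authors with Agilent Feature Extraction (9.1.1.1 on slides 1 to 3, 9.1.3.1 on slide 4, per the file headers), which subtracts the background and leaves arrays unscaled. A value table that the authors normalized further served as an alternative.

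Outlier spots (1 to 326 per array) were left out, spots of a probe averaged, and log2 values taken relative to the 75th percentile of the array. A probe was tested where some group had it well above background on all its arrays (22172 of 41174). Groups were compared by limma 3.58.1 in R 4.3.3 (files read with data.table, version 1.17.8; figures and motifs made in Python 3.11.15), all arrays in 1 fit, adjusting p over the tested probes by Benjamini-Hochberg, and the scripts were tested on simulated data. The number of arrays limits the precision. The members and lists were chosen with earlier results of these data known. Named genes are all members, *Plg*, *Tfpi* and *F2r*, up to 4 called genes of largest fold per comparison from the other lists, and the 3 most alike per member; 1 gene of the lists is not reported here.

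Whether replicate numbers pair the arrays was checked from their deviations from group means. On slides 1 to 3, where slide and number coincide, r was 0.308 to 0.613 in 18 pairs of equal number and -0.510 to 0.0954 in the 36 other pairs, so these arrays are paired. The main fit held no term for slide or replicate, so its SE, intervals and p do not use this pairing. Blocks for replicate and for slide entered only as alternatives. With K314/315R, r was -0.101 to 0.411 in 8 pairs of equal number and -0.416 to 0.416 in 16 others.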

Additional observations from a re-analysis of the deposited data

How the results depend on the processing

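The counts of called genes were recomputed under alternatives. With normexp, 1 gene (*Serpinb2*) was called for wild type 3 h over 0 h, KTR over pTV and K314/315R over pTV. With no fold limit, 5 genes were called for wild type over pTV and 4 for KTR over pTV. The replicate block gave 3, 3, 0, 0, 2 and 4 called genes for wild type over pTV, TNFα, KTR over wild type, K314/315R over wild type, KTR over pTV and K314/315R over pTV, and the paired fit changed no call. Leaving out single arrays gave 2 to 3 calls for TNFα and 3 to 4 for K314/315R over pTV and left the other counts as they were. Small differences changed sign with normexp: *F3* in wild type over pTV (-0.06), in K314/315R over wild type (0.07) and over pTV (0.01), *Plau* in KTR over wild type (-0.06) and *Plaur* in K314/315R over wild type (0.09). Leaving out single arrays, *F3* ran from -0.21 to 0.28 in wild type over pTV, -0.04 to 0.44 in KTR over pTV, -0.42 to 0.03 in K314/315R over wild type and -0.40 to 0.08 in K314/315R over pTV. *Plat* ran from -0.06 to 0.22 in KTR over wild type and *Plau* from -0.02 to 0.10 with TNFα. In K314/315R over wild type *Plaur* ran from -0.12 to 0.09, *Serpinb2* from -0.04 to 0.36 and *Serpine2* from -0.26 to 0.06. The cause was not tested. The local background subtraction was chosen after seeing the data. The 2 K314/315R arrays, and signals near background, limit the precision.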
